A study of Mus musculus with 22 samples.

Results

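The core spliceosome genes considered here are the protein-coding genes of the mouse annotation whose symbols begin with Sf3a, Sf3b, Prpf, Snrp, Snrnp, U2af or Luc7l, or with Lsm followed by a number, which gave 60 of 21951 protein-coding genes. They were examined for binding of hnRNP A1 in spinal cord by CLIPseq, in which UV light crosslinks proteins to RNA, an antibody recovers one protein, and the attached RNA is sequenced. The lists cover 10 female wild-type C57BL/6 mice, comprising 3 naïve mice and 7 mice with experimental autoimmune encephalomyelitis (EAE), an inflammatory demyelinating disease induced by immunization with MOG(35-55), a myelin peptide, emulsified in complete Freund's adjuvant, together with 100 ng of pertussis toxin. The EAE mice were 12 weeks old at immunization by the protocol and 8 weeks by the design text, and cords were taken 15 days after clinical onset. Mild EAE comprised EAE_3 and EAE_4 with a clinical score of 1.5 and EAE_7 with 1.0, and severe EAE comprised EAE_1 and EAE_5 with 2.5 and EAE_2 and EAE_6 with 3.0. The hnRNP A1 antibody was clone 9H10 by the labels and clone 4B10 by the study's methods, and which was used is not settled here. Naïve mice had no EAE, and the labels describe no group given the adjuvant and toxin without the peptide, so disease and these agents cannot be told apart.

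The spliceosome removes introns from pre-mRNA. The U1 particle recognizes the start of an intron, U2AF and the U2 particle recognize its end and the branch point, and the tri-snRNP of U4, U6 and U5 joins to form the catalytic machine. A ring of Sm proteins surrounds most of the small nuclear RNAs, and a related LSm ring binds U6. hnRNP A1 is an RNA-binding protein that regulates the choice of splice sites and is known to favour sequences with UAG.

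A footprint here is a stretch of genome left after contigs were assembled from the reads of one mouse, aligned, and stripped of sites also present in the matched input or the pooled control antibody. The lists give positions only, so neither the strand nor the number of reads behind a footprint is known, and a gene without a footprint is one where none was retained. The lists held 17119 to 17494 footprints in the naïve mice and 9751 to 24433 in mild EAE. In severe EAE they held 2670 in EAE_1, 209 in EAE_2, 31870 in EAE_5 and 673 in EAE_6. EAE_2 and EAE_6 held the shortest lists, EAE_1 also lay below every naïve and mild EAE mouse, and EAE_5 held the longest. The study names EAE_5 as the outlier of the severe group, with binding like that of naïve and mild EAE mice. It adds that this mouse had been in remission shortly before the experiment ended. The group comparisons with severe EAE are also given without EAE_2 and EAE_6, and without EAE_5. Of 8 markers each of neurons, oligodendrocytes and astrocytes, the naïve and mild EAE mice had 6 to 8, 6 to 7 and 4 to 7 footprinted, EAE_1 had 3, 5 and 4, and EAE_5 had all 8 of each. EAE_2 had 0, 1 and 0 and EAE_6 had 1, 2 and 1, so the short lists of these mice left most markers of the tissue out. Of 8 immune cell markers, 0, 1 and 1 were footprinted in the naïve mice, 7, 5 and 5 in mild EAE, and 2, 0, 6 and 3 in EAE_1, EAE_2, EAE_5 and EAE_6. Counts from whole cord cannot separate fewer cells of a type from less RNA per cell, and the part of infiltrating cells in the results below was not tested.

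The stretches shared by the most mice show where hnRNP A1 footprints recurred. They are printed on the strand of the gene, 5′ to 3′, in GRCm38, with each UAG (written TAG) in capitals. The first lies in exon 10 of Snrnp70, the U1 70K protein gene (chr7:45376763-45376888, minus strand), and was covered in all 3 naïve mice, in EAE_4 and EAE_7, and in EAE_5. The Prpf19 stretch, from a ubiquitin ligase that acts in spliceosome activation, lies in exon 7 (chr19:10900176-10900216, plus strand) and was covered in 6 mice. The Luc7l3 stretch, from a homologue of a yeast U1 protein, lies in exon 7 (chr11:94297759-94297787, minus strand) and was also covered in 6 mice. The Sf3b2 stretch, from a subunit of the U2 complex SF3B, lies in exon 9 (chr19:5287085-5287284, minus strand), and the U2af2 stretch, from the subunit that binds the polypyrimidine tract, in exon 11 (chr7:5075557-5075673, plus strand). Each of these last stretches was covered in 5 mice, 1 naïve, 3 mild EAE and EAE_5. They are the longest of many stretches in 5 mice. The next longest, in Snrnp70 and Snrnp200, were each covered in 2 naïve mice, 2 mild EAE mice and EAE_5. All the stretches printed here are coding sequence, and 3 of the 5 held no UAG.
Snrnp70 exon: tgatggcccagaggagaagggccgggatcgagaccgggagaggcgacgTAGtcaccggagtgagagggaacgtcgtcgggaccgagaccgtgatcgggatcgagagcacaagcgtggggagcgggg
Prpf19 exon: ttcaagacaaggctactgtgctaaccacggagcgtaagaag
Luc7l3 exon: aaattaaagccactgtggaagaattaaaa
Sf3b2 exon: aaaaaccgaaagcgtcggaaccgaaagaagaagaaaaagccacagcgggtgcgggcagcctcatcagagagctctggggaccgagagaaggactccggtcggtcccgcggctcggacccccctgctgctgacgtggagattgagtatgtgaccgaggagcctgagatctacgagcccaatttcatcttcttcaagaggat
U2af2 exon: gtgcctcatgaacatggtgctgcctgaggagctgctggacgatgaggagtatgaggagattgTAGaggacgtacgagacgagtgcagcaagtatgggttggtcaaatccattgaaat

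The stretches in introns or in exons of non-coding isoforms that recurred in at least 3 mice, leaving aside the Luc7l pseudogene described below, all lay in intron 1 of Luc7l2, which encodes another Luc7-like protein. The one in the most mice (chr6:38558729-38558852, plus strand) was covered in Naive_1, Naive_3, EAE_4 and EAE_5, and the next (chr6:38560021-38560136) in Naive_1, EAE_4 and EAE_5. Another (chr6:38557595-38557703), covered in Naive_3, EAE_7 and EAE_5, is annotated only as exon of retained-intron and nonsense-mediated decay isoforms. A stretch of Snrnp70 in intron 7 (chr7:45381945-45382047, minus strand), covered in EAE_7 and EAE_5, is exon of retained-intron isoforms only. These stretches held 6, 5, 4 and 3 UAG. The Snrnp70 stretch was chosen from those in 2 mice after its values were seen. The other stretches of this kind in 2 mice held 1 UAG (Luc7l2), 6 (Luc7l) and 0 (Prpf40b).
Luc7l2 intron, first: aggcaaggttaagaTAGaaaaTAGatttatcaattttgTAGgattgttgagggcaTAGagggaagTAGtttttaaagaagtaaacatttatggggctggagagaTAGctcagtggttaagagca
Luc7l2 intron, second: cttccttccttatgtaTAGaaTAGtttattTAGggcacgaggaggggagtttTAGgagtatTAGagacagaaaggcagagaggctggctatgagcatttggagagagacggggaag
Luc7l2 isoform exon: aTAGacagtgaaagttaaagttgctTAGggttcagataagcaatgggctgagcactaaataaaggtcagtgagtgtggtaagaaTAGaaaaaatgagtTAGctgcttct
Snrnp70 isoform exon: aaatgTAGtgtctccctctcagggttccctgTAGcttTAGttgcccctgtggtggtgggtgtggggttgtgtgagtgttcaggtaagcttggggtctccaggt

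Of the 60 genes, 40 had a footprint in at least 1 mouse, 16 in at least 6 mice, 19 in 2 to 5 mice and 5 in 1 mouse, and 20 had none. Over all protein-coding genes, 45.6% had a footprint in at least 1 mouse and 10.2% in at least 6. The 60 genes held 610 footprints with a median length of 91 nt and a range of 18 to 593 nt, against a median of 114 nt in the other protein-coding genes. The naïve mice held 65, 59 and 82 of these footprints, EAE_3, EAE_4 and EAE_7 held 98, 42 and 114, EAE_1 held 7 and EAE_5 held 143. EAE_2 and EAE_6 held none.
The genes without a footprint were shorter in the median. Their median exonic length was 2805 nt against 5304 nt for the footprinted genes, and they included Lsm1, Lsm2, Lsm3, Lsm5, Lsm7 and Lsm8 of the LSm rings, Snrpd1, Snrpd3, Snrpe and Snrpf of the Sm ring, and Snrpc of U1. Length also ordered the whole annotation. With genes divided by exonic length into 3 classes of nearly equal number, 7 of 16 spliceosome genes were footprinted among genes of up to 2448 nt, where 21.2% of all protein-coding genes were. In the middle class, 11 of 19 were footprinted against 45.0% of all, and among genes of at least 4867 nt 22 of 25 against 70.5%.

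**Figure D1:**
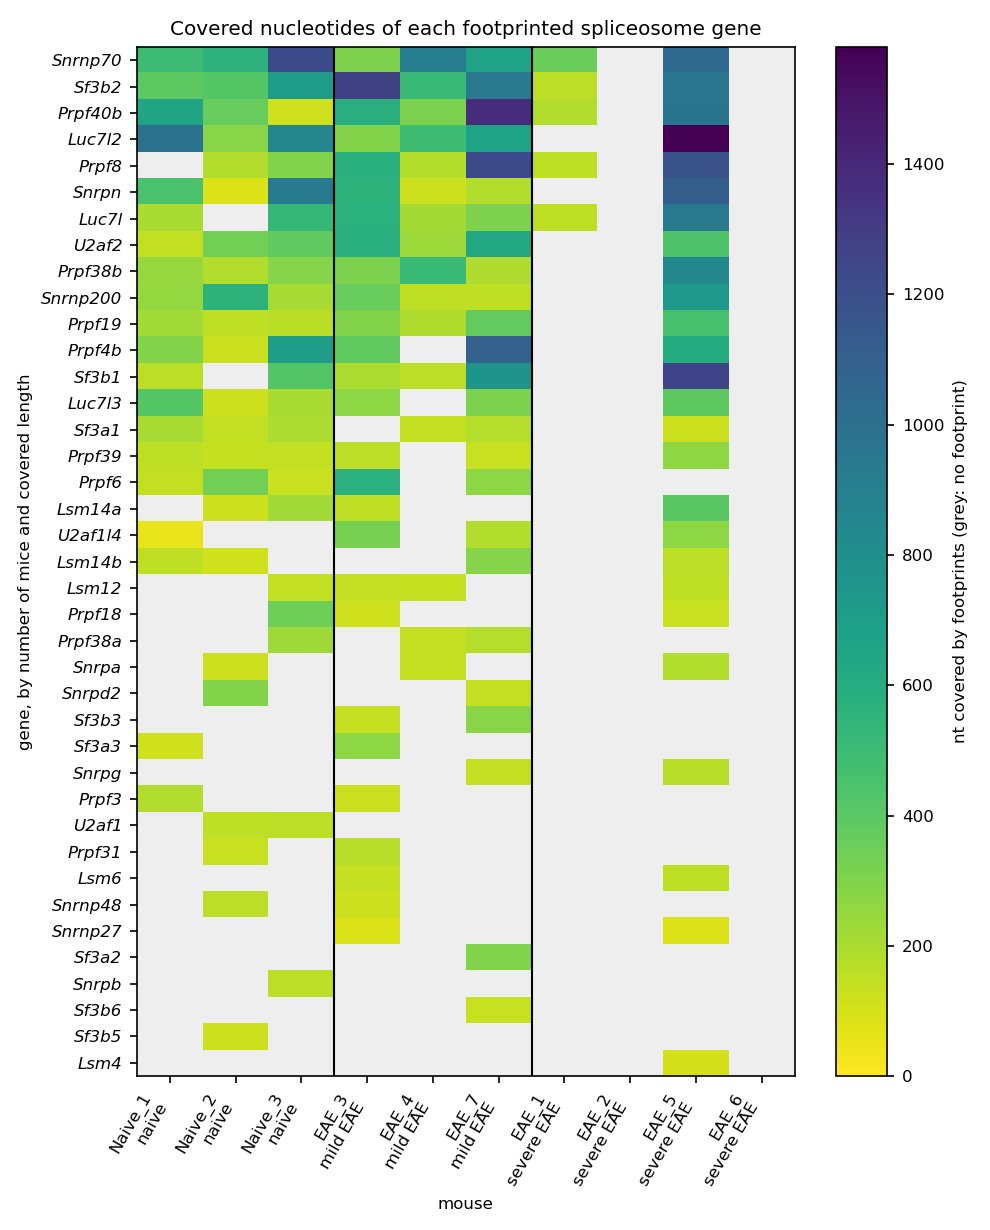
Nucleotides covered by footprints in 39 of the 40 spliceosome genes footprinted in at least 1 mouse (rows, ordered by number of mice) in each of the 10 mice (columns, naïve, mild EAE and severe EAE separated by lines), with colour from 0 to the highest value and grey for no footprint. Snrnp70, Sf3b2 and Prpf40b were covered in 8 mice, the columns of EAE_2 and EAE_6 are empty, and EAE_1 has 5 genes.

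The U1 and Luc7-like genes were the most regularly footprinted, 8 of 9 in at least 1 mouse and 6 of 9 in at least 6 mice, with 201 footprints. Their median exonic length, 7523 nt, was also the longest, ahead of 5661 nt in the tri-snRNP and other Prp genes. Snrnp70 was covered over 494, 567 and 1225 nt in the naïve mice, 308, 905 and 671 nt in EAE_3, EAE_4 and EAE_7, 361 nt in EAE_1, 1039 nt in EAE_5 and 0 nt in EAE_2 and EAE_6. Luc7l2 was covered over 992, 278 and 853 nt in the naïve mice, 293, 488 and 663 nt in EAE_3, EAE_4 and EAE_7, and 1580 nt in EAE_5. Prpf40b, a U1-associated protein, was covered over 655, 366 and 114 nt in the naïve mice, 583, 312 and 1380 nt in EAE_3, EAE_4 and EAE_7, 180 nt in EAE_1 and 963 nt in EAE_5. Naïve and mild EAE values overlapped in all 3 genes, and within severe EAE the values ran from nothing to levels above most or all other mice. Luc7l3 and Prpf39, which is also U1-associated, had footprints in all 3 naïve mice, in EAE_3 and EAE_7, and in EAE_5, with 122 to 416 nt and 135 to 262 nt where present.

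Luc7l calls for separate treatment because its most shared stretch lies in a pseudogene of another gene. Of its 21 footprints, 8, from 6 mice, lay in Gm16580 (chr17:26269337-26270384, plus strand), an annotated processed pseudogene inside a Luc7l intron that matches the transcript of Pabpc1, the cytoplasmic poly(A)-binding protein, at 97.1% identity over 1052 aligned nt. Which of these sequences the contigs came from cannot be told apart, and Pabpc1 itself was footprinted in 8 mice, including all 6 of these. The other 13 Luc7l footprints came from 5 mice, with 201 nt in Naive_1, 357 nt in Naive_3, 170 nt in EAE_3, 50 nt in EAE_7 and 385 nt in EAE_5. Without the pseudogene Luc7l had no footprint in EAE_4 or in EAE_1. The counts above of genes footprinted in at least 6 mice include Luc7l only through the pseudogene. The stretch in all 6 mice (chr17:26269709-26269829) is shown for this reason.
Luc7l intron, pseudogene: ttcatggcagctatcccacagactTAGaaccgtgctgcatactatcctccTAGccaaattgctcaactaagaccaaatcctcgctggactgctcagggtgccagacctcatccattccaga

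Among the U2 and U2AF genes, 11 of 14 were footprinted in at least 1 mouse and 4 in at least 6, with 162 footprints. Sf3b2 had the most footprints of all the genes, 54, and was covered over 398, 414 and 708 nt in the naïve mice, 1281, 513 and 942 nt in EAE_3, EAE_4 and EAE_7, 157 nt in EAE_1 and 960 nt in EAE_5. U2af2 was covered over 147, 337 and 387 nt in the naïve mice, 592, 229 and 626 nt in EAE_3, EAE_4 and EAE_7, and 442 nt in EAE_5. Sf3b1, the subunit at the branch point, was covered over 156, 0 and 424 nt in the naïve mice, 194, 160 and 760 nt in EAE_3, EAE_4 and EAE_7, and 1262 nt in EAE_5. The naïve and mild EAE ranges of these genes overlapped. Sf3a1, of the SF3A complex, was covered over 205, 146 and 193 nt in the naïve mice, 0, 143 and 175 nt in EAE_3, EAE_4 and EAE_7, and 127 nt in EAE_5, so that the naïve mice lay above all severe EAE mice. U2af1, the partner of U2af2, had an intronic footprint of 149 nt in Naive_2 and 2 coding ones in Naive_3, both within regions that have copies elsewhere at 100% identity. Snrpa1, Snrpb2 and Sf3b4 had none.

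Of the tri-snRNP and other Prp genes, 11 of 13 were footprinted in at least 1 mouse and 5 in at least 6, with 174 footprints. Prpf8, the protein at the catalytic centre, had the most, 36, and was covered over 0, 180 and 299 nt in the naïve mice, 574, 179 and 1227 nt in EAE_3, EAE_4 and EAE_7, 154 nt in EAE_1 and 1175 nt in EAE_5. Prpf6, which bridges the particles of the tri-snRNP, was covered over 143, 337 and 130 nt in the naïve mice and 572, 0 and 271 nt in EAE_3, EAE_4 and EAE_7. It had no footprint in severe EAE, and of the 60 genes it alone combined this with footprints in every naïve mouse. EAE_2 and EAE_6 had no footprint in any of the 60 genes and EAE_1 had them in 5. The absence of Prpf6 in severe EAE thus rests mainly on EAE_5, with 27 genes footprinted. None of the 60 was footprinted in all 3 mild EAE mice and in no naïve mouse. How many of all protein-coding genes had either pattern was not counted. The helicase Snrnp200 was covered over 207 to 557 nt in the naïve mice, 150 to 370 nt in mild EAE and 729 nt in EAE_5, and Prpf38b over 179 to 287 nt, 191 to 518 nt and 840 nt. The kinase Prpf4b was covered over 128 to 692 nt in the naïve mice, 0 to 1097 nt in mild EAE and 601 nt in EAE_5, and Prpf19 over 152 to 219 nt, 189 to 381 nt and 460 nt. None of the last 4 genes had a footprint in EAE_1, EAE_2 or EAE_6. Prpf4 and Snrnp40 had no footprint.

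The Sm, LSm and minor spliceosome genes were footprinted less. Their median exonic lengths were also the shortest, at 2014, 2892 and 1347 nt. Of 8 Sm genes, 4 had a footprint, and 29 of their 37 footprints were in Snrpn, the imprinted neuronal Sm gene. Snrpn was covered over 451, 83 and 932 nt in the naïve mice, 559, 120 and 184 nt in EAE_3, EAE_4 and EAE_7, and 1104 nt in EAE_5. Of these footprints 28 also overlapped Gm38393 and 4 overlapped Snurf, both annotated on the same strand, so the transcript they came from cannot be told apart. Of 13 LSm genes, 5 had a footprint, and 27 of the 32 footprints lay in Lsm14a, Lsm14b and Lsm12, which are not part of the LSm rings. Lsm14b had the most, 11, over 149 and 112 nt in Naive_1 and Naive_2, 290 nt in EAE_7 and 158 nt in EAE_5. Of the 3 minor spliceosome genes, Snrnp48 was covered over 157 nt in Naive_2 and 121 nt in EAE_3.
Of 66 other spliceosome genes listed for comparison, among them helicases and exon junction proteins, 55 were footprinted in at least 1 mouse and 14 in at least 6. The naïve mice had 22, 33 and 29 of them, mild EAE 31, 17 and 40, EAE_1 3, EAE_5 36 and EAE_2 and EAE_6 none.

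The share of the 60 genes with a footprint was 33.3, 38.3 and 40% in the naïve mice, 46.7, 28.3 and 43.3% in EAE_3, EAE_4 and EAE_7, and 8.33, 0, 45.0 and 0% in EAE_1, EAE_2, EAE_5 and EAE_6. The group means were 37.2% ± 3.47 (SD, n = 3), 39.4% ± 9.77 (SD, n = 3) and 13.3% ± 21.5 (SD, n = 4). Mild EAE minus naïve was 2.22 percentage points (two-sided exact permutation test, adjusted p = 0.80 over 3 comparisons), a difference within the spread of the mice. Severe EAE minus naïve was -23.9 points and severe minus mild EAE -26.1 points (two-sided exact permutation tests, adjusted p = 0.214 each). Neither passed, and EAE_5 lay inside the range of the mild EAE mice. An exact permutation test cannot go below p = 0.10 with 3 mice against 3, or below 0.0286 with 3 against 4.
Without EAE_2 and EAE_6 these differences were -10.6 and -12.8 points, and without EAE_5 they were -34.4 and -36.7 points. The lists differed in length between mice, and other protein-coding genes were footprinted at 17.6 to 24.0% in the naïve mice, 13.6 to 25.5% in mild EAE, and 5.45, 0.489, 29.5 and 1.80% in EAE_1, EAE_2, EAE_5 and EAE_6. The part of list length in the group differences was not tested.

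As a share of all footprints that overlap a gene, the spliceosome genes took 0.421, 0.375 and 0.512% in the naïve mice, 0.717, 0.476 and 0.503% in EAE_3, EAE_4 and EAE_7, 0.307% in EAE_1 and 0.481% in EAE_5. EAE_1 rested on 7 of 2282 footprints (exact 95% binomial interval 0.123 to 0.631%), an interval that holds the values of all naïve mice. EAE_2 had 0 of 171 and EAE_6 0 of 602, with two-sided exact 95% intervals reaching 2.13% and 0.611% (1.75% and 0.498% by a limit of 3 counts). Both limits of EAE_2 lie above the shares of all 3 naïve mice, so a lower share was not detectable there with so few retained footprints. In EAE_6 a lower share than in Naive_1 or Naive_2 was not detectable either. Against Naive_3 the answer for EAE_6 depends on the limit used, since only the interval reaches above that mouse. These intervals and limits cover counting error only. The means differed by 0.129 points between mild EAE and naïve, -0.239 points between severe EAE and naïve, and -0.368 points between severe and mild EAE (two-sided exact permutation tests, adjusted p = 0.30, 0.30 and 0.257), and none passed. Without EAE_3 the difference of mild EAE from naïve was 0.0535 points. Without EAE_2 and EAE_6 the differences of severe EAE from naïve and from mild EAE were -0.0419 and -0.171 points. Without EAE_5 they were -0.334 and -0.463 points.

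**Figure D2:**
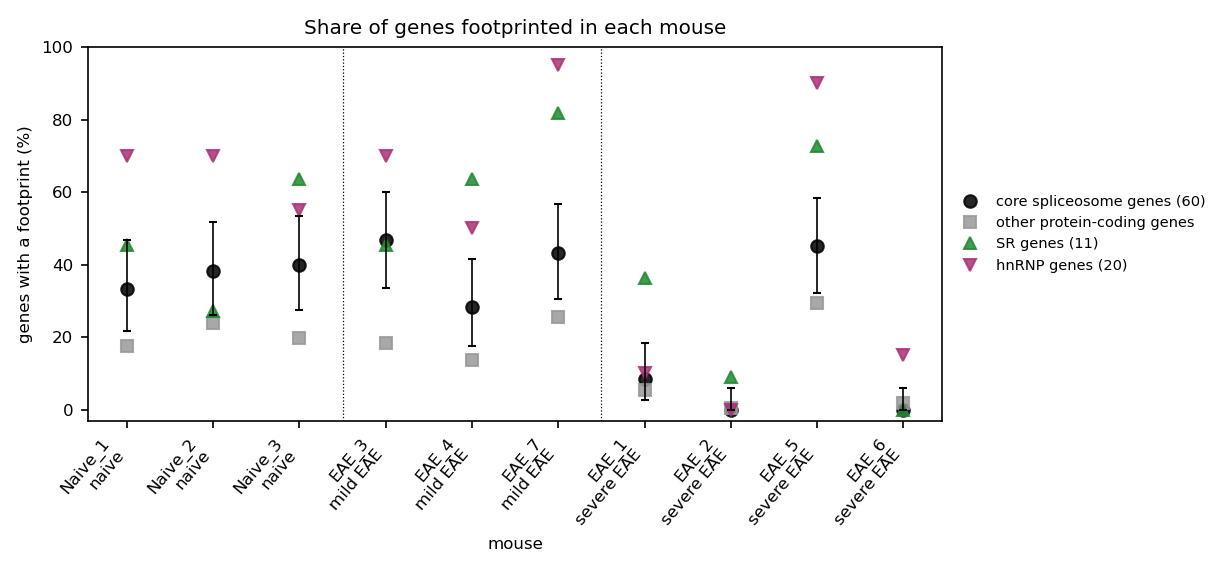
Share of genes with at least 1 footprint (percent, vertical axis) in each mouse, for the 60 spliceosome genes (circles, with exact 95% binomial intervals for counting error), the other protein-coding genes (squares), 11 SR genes (upward triangles) and 20 hnRNP genes (downward triangles). Circles lie above squares in 8 mice and at 0 in EAE_2 and EAE_6.

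Within each mouse the spliceosome genes were footprinted more often than other protein-coding genes in 8 of 10 mice, the exceptions being EAE_2 and EAE_6 with none. The mean difference was 12.7 percentage points ± 9.61 (SD, n = 10; two-sided exact sign-flip permutation test over mice, p = 0.00781). The ratio of the shares ran from 1.53 to 2.55 in the 8 mice. The difference was largest in EAE_3, at 28.3 points, and smallest of the 8 in EAE_1, at 2.88 points. This compares gene sets that differ in exonic length, and their expression is unknown here. The same genes are scored in every mouse, so this test and the sign-flip tests below cover the spread between mice. They do not cover the spread between genes.
The other splicing factor families were footprinted more often still. Spliceosome genes minus the 11 SR genes (Srsf) gave a mean difference of -16.2 points, lower in 7 mice and higher in 2 (exact sign-flip permutation test, adjusted p = 0.0273 over 2 comparisons), and leaving out any of 5 mice in turn took p to 0.0547. Spliceosome genes minus the 20 hnRNP genes gave -24.2 points, lower in 9 mice and higher in none (exact sign-flip permutation test, adjusted p = 0.00781).

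Footprints in the spliceosome genes lay mostly in coding sequence, 536 of 610 or 87.9%. UTRs held 30, exons of non-coding isoforms only 16, exons of another gene inside a spliceosome gene 8, and introns 20. The intronic share was 6.15, 3.39 and 4.88% in the naïve mice, 0, 4.76 and 1.75% in EAE_3, EAE_4 and EAE_7, and 4.20% in EAE_5, the 7 mice with at least 10 of these footprints. In the other protein-coding genes of the same mice it was 37.9, 41.5 and 27.1%, 10.3, 22.6 and 17.5%, and 20.5%. The spliceosome genes were lower in 7 of 7 mice, with a mean difference of -21.7 points ± 9.83 (SD, n = 7; two-sided exact sign-flip permutation test, p = 0.0156, the smallest this test can give). The gene sets were not matched for gene or intron length, and SR and hnRNP genes were not compared in this way.
Between groups, the intronic share of the spliceosome genes differed by -2.64 points between mild EAE and naïve mice and by -2.13 points between the 4 EAE mice with enough footprints and the naïve mice (exact permutation tests, adjusted p = 0.229 each), and neither passed. Without EAE_3 the differences were -1.55 and -1.24 points. These shares rest on 0 to 6 intronic footprints per mouse. Severe EAE had 1 such mouse, EAE_5, so no test of that group was made.

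**Figure D3:**
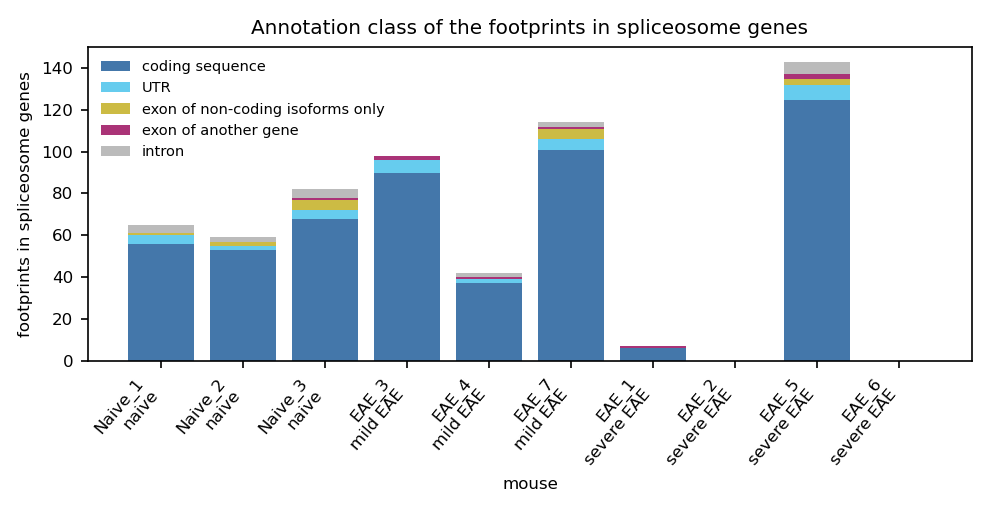
Number of footprints in spliceosome genes (vertical axis) in each mouse, stacked by annotation class of the footprint's midpoint. Coding sequence forms most of every bar present, for example 6 of 7 footprints in EAE_1, 68 of 82 in Naive_3 and 90 of 98 in EAE_3, and EAE_2 and EAE_6 have none.

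Most of these footprints followed the spliced mRNA. Of the 610, 486 had at least 1 edge exactly on an annotated splice site and 101 had both edges there. In 244 cases the footprint of one exon ended and the next footprint of the same mouse began at the 2 sides of an annotated junction, which involved 431 footprints or 70.7%. Such neighbours can be pieces of a single spliced contig, so footprints of 1 gene in 1 mouse are not independent. Among exonic footprints the share with an edge on a splice site was 76.9 to 90.2% in the naïve mice, 75.0 to 88.8% in mild EAE and 86.1% in EAE_5. It exceeded that of other protein-coding genes in 7 of 7 mice, by 3.44 to 20.8 points (mean 10.6 ± 7.16, SD, n = 7; exact sign-flip permutation test, p = 0.0156, the smallest possible). A footprint over several other genes was checked against the splice sites of only 1 of them. Over footprints on 1 gene only, the mean excess was smaller, 7.01 points (exact sign-flip permutation test, p = 0.0156). These gene sets were not matched for length or number of exons, and SR and hnRNP genes were not compared.

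Merged over mice, the footprints formed 299 regions, of which 160 came from 1 mouse, 139 from at least 2 and 21 from at least 5. No region was covered in more than 7 mice. At the level of genes, 7 were footprinted in some EAE mouse and in no naïve mouse, and 3, Snrpb, Sf3b5 and U2af1, in some naïve mouse and in no EAE mouse. Naïve and EAE mice shared 96 regions, 57 were found in naïve mice only and 146 in EAE mice only, with 7 EAE mice against 3 naïve. These counts of genes and regions were not made over all protein-coding genes, so they are not read as particular to spliceosome genes. Of the regions in at least 2 mice, 125 were coding and 6 in UTRs. The Snrnp70 exon 10 region recurred in 7 mice (chr7:45376660-45377280). Luc7l2 had 16 of its 43 footprints in introns or in exons of non-coding isoforms, all inside intron 1 (chr6:38551909-38570509), between 4377 and 14536 nt from its start. Naive_1, Naive_3 and EAE_7 had 3 each, EAE_4 had 2 and EAE_5 had 5, so they were found in all 3 groups. Snrnp70 had 9 such footprints, 1 in Naive_2, 3 in Naive_3, 3 in EAE_7 and 2 in EAE_5.

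**Figure D4:**
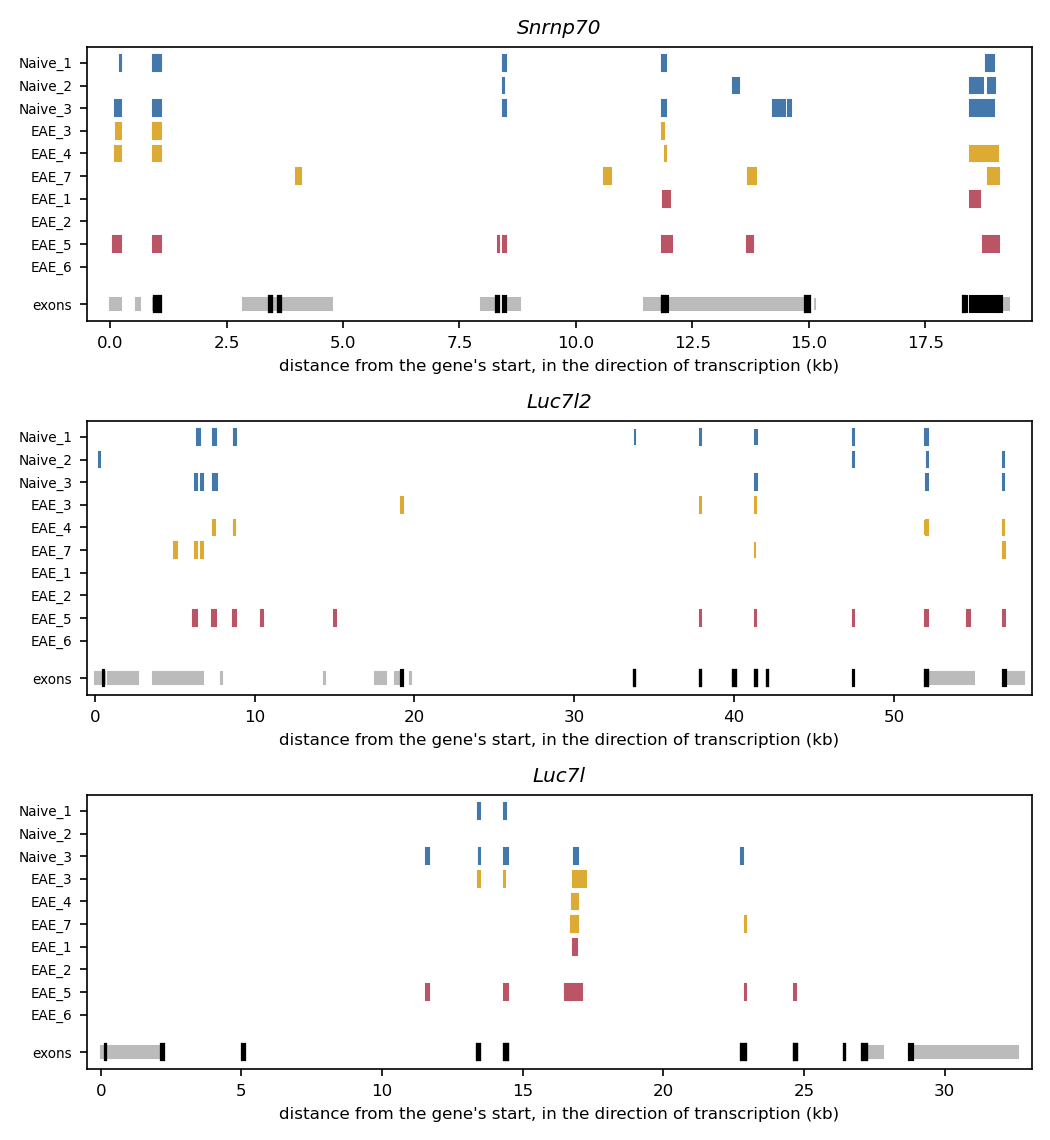
Footprints of each mouse (rows; blue naïve, yellow mild EAE, red severe EAE) along Snrnp70, Luc7l2 and Luc7l, by distance from the gene's start in kb, with annotated exons below (black coding, grey other exon sequence). Snrnp70 exon 10 is covered in 7 mice, the Luc7l2 intron 1 footprints come from 5 mice, and the Luc7l column in 6 mice is the pseudogene Gm16580.

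UAG was counted on the gene's strand, and its density was compared with that in equally long windows placed 200 nt beyond each edge of the footprint. The windows were taken whatever their annotation class, so those of coding footprints can lie in introns. Over the 259 coding regions its density was 6.37 per 1000 nt against 13.8 in the windows, and 43.2% of regions held it against 68.3% of windows. Over the 25 regions in introns or in exons of non-coding isoforms the density was 22.1 per 1000 nt against 14.1, and 88.0% of regions held it against 86.0% of windows. Over the 13 UTR regions the density was 9.21 per 1000 nt against 12.7, and 69.2% held it against 84.6%. UAG is a stop codon and so cannot stand in frame in coding sequence. A like contrast held over the other protein-coding genes, with 22.8 against 14.7 per 1000 nt in intronic footprints and 6.27 against 12.1 in exonic ones, so it was not particular to spliceosome genes. These values count the footprints of each mouse that lay over 1 gene only, unmerged and with all exon classes pooled.
Per mouse, UAG was counted only in spliceosome footprints that overlapped no other gene, which leaves out nearly all of Snrpn and all of U2af1l4. The log2 ratio of UAG density in these footprints over windows was -0.43, -1.38 and -0.74 in the naïve mice, -1.23, -0.82 and -0.62 in EAE_3, EAE_4 and EAE_7, and -0.54 in EAE_5. The EAE mean exceeded the naïve mean by 0.05 (two-sided exact permutation test over 4 against 3 mice, p = 0.83), a difference well inside the spread of the mice.

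Covered lengths were compared gene by gene over the 9999 protein-coding genes with a footprint in some mouse, of which 40 were spliceosome genes. All naïve mice lay above all severe EAE mice for 2 spliceosome genes, Prpf6 and Sf3a1, where 2.53% of all genes tested were so arranged. All mild EAE mice lay above all naïve mice for 1, against a background of 2.59%, and above all severe EAE mice for 1, against 1.44%. For no spliceosome gene did naïve lie above mild EAE, against 2.94% of all genes, severe EAE above naïve, against 0.01%, or severe above mild EAE, against 0%. Counts this small are near the background. By the exact permutation test of each gene, adjusted over all 9999, no gene passed in any comparison. At an unadjusted p under 0.05 there were 178 genes for severe EAE against naïve, 91 for severe against mild EAE and 0 for mild EAE against naïve, where 3 mice against 3 cannot reach it. Among spliceosome genes only Prpf6, severe EAE against naïve, had an unadjusted p under 0.05 (exact p = 0.0286, adjusted p = 1.00, a mean of 203 nt in naïve mice and 0 nt in each severe EAE mouse). EAE_2 and EAE_6 had no footprint in any spliceosome gene. Without EAE_2 and EAE_6 the counts were the same, 2 for naïve above severe EAE against 2.55% of all genes and 1 for mild above severe EAE against 1.46%. Without EAE_5 they were 13 of 40, against 18.3% of all genes, and 12 of 40, against 16%.

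Some footprints cannot be assigned with certainty. Of the 610, 52 overlapped another annotated gene, among them all 12 of U2af1l4 with Gm49396. Of 264 regions of at least 40 nt, 34, from 12 spliceosome genes, had a copy outside the gene at 95% identity or more over at least 90% of their length. Among these were the Prpf19 region in 6 mice, identical over 44 nt to a stretch on another chromosome, and 3 Luc7l2 coding regions in 3 or 5 mice, at 97.3 to 98.5% identity to Gm11889. U2af2 and Snrpn had such regions too. The regions holding the Snrnp70 and Sf3b2 stretches printed above had none. Copies of only part of a region, such as repeats, were not counted, also for the Luc7l2 intron stretches.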

How the data were processed

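Spinal cord hnRNP A1 immunoprecipitations of 10 mice were analysed. Inputs and IgG pools were not analysed here. The authors assembled reads into contigs with rnaSPAdes, aligned them to GRCm38 with minimap2 (2.17), subtracted input and IgG sites and merged overlapping sites. The deposited values are other than a measured signal: chromosome, start and end of each footprint, with no score, strand or read count, so read depth per footprint is unknown.

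Footprints were set against GENCODE release M 21 by overlap of at least 1 nt with a gene's span, and classed by midpoint. Of 136207 footprints, 0 passed a chromosome end. Each mouse was 1 replicate, grouped by the labels' clinical scores with the study's division into mild and severe. Covered nucleotides, shares and UAG densities were tested by exact two-sided permutation over mice, with Benjamini-Hochberg adjustment. Genes named are those footprinted in at least 6 mice, the 10 with the most covered nucleotides, those in all naïve and no severe mice or all mild and no naïve mice, and the leading gene of each role. The members and lists were chosen with earlier results of these data known. The splice-site comparison, the search for copies and the values without EAE_2 and EAE_6 were added after the data were seen. Some results for single genes are not reported here. Copies were sought with blastn 2.17.0. Class assignment was tested on 200 simulated footprints, of which 200 were recovered. They were placed at the middle of annotated coding or intron intervals, so this checks the code and not the class of real footprints. Alternatives were footprints of at least 30 nt, overlaps of at least 20 nt, footprints over 1 gene only, other measures of length, a replicate block and leaving out each mouse in turn. Python 3.11.15, numpy 2.4.6, scipy 1.17.1 and pysam 0.24.0 were used.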

Additional observations from a re-analysis of the deposited data

Results flagged for a closer look

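The number of footprints in spliceosome genes set 1 severe EAE mouse apart. EAE_5 had 143 where EAE_1 had 7 and EAE_2 and EAE_6 had 0, a gap of 0.951 of the group's range above Dixon's 95% critical value for 4 samples, which chance passes in about 1 of 20 groups. The gap was under the critical value for the share of the 60 genes footprinted (0.815), their share of gene-overlapping footprints (0.362) and the share of other protein-coding genes footprinted (0.83). The total list of EAE_5 was also the longest, at 31870 footprints. By the sequencing summary of the study, EAE_5 was the deepest immunoprecipitated library, counted in uniquely aligned reads. By that count EAE_1, EAE_2 and EAE_6 were each deeper than Naive_2, whose list was longer than theirs. The part of depth in list length was not tested. Of the 16 spliceosome genes footprinted in at least 6 mice, 14 had covered lengths in severe EAE that set 1 mouse apart by Dixon's measure. In 11 of these EAE_5 alone of the severe EAE mice had any footprint, so the measure is at its maximum whatever the length, and all come from the same lists.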

How the results depend on the processing

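Requiring footprints of at least 30 nt, overlaps of at least 20 nt, footprints over 1 gene only, exon overlap, or covered nucleotides as the measure of a share moved none of the results run under them across their threshold or in direction. Scaling covered length to 1000000 covered nt raised the count of genes with mild EAE above naïve from 1 to 4 of 40, where the share of all genes rose from 2.59 to 4.27%, and with mild above severe EAE from 1 to 3, where it rose from 1.44 to 4.92%. The cause was not tested. With each mouse left out, the mild minus naïve difference in genes footprinted ran from -1.39 to 7.78 points and turned negative without EAE_3. The UAG difference ran from -0.22 to 0.26 and turned negative without Naive_2, EAE_7 (-0.01) or EAE_5 (-0.04). The difference from SR genes ran from -19.2 to -13.7 points, with p = 0.0547 by the exact sign-flip permutation test without Naive_3, EAE_4, EAE_7, EAE_1 or EAE_5. Counts of genes with groups apart ran from 2 to 13 of 40 for naïve above severe EAE (13 without EAE_5, with 18.3% of all genes), 0 to 2 for naïve above mild EAE (2 without Naive_2 or EAE_3, with 5.91 and 3.92%), 1 to 7 for mild EAE above naïve (7 without EAE_4, with 9.96%; 4 without Naive_3, with 4.33%), and 1 to 12 for mild above severe EAE (12 without EAE_5, with 16%; 4 without EAE_4, with 6.14%; 3 without EAE_3, with 3.27%). With a replicate block over the numbers 1 and 2, which mark different animals, severe EAE lay below naïve by -31.7 points in genes footprinted and -0.244 points in share of footprints (exact p = 0.50 each, the smallest 2 pairs allow). No paired analysis was possible for the intronic share or UAG because EAE_1 and EAE_2 had fewer than 10 such footprints. The lack of read counts and the short lists of EAE_1, EAE_2 and EAE_6 limit every statement on severe EAE.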
